A study of Homo sapiens with 6 samples.

Results

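Regions of open chromatin that were called in exactly 1 of 6 ATAC-seq libraries numbered 14800, of 58926 regions in all (25.1%). They were found by joining the peaks of the 6 lists wherever they overlapped by 1 bp or more, on chromosomes 1 to 22 and X, and keeping the joined regions with a peak from a single list. Each of the 14800 held 1 peak. Members were chosen by the presence of a peak in the deposited lists, which rests on the q-value in each list, so how weak these peaks were and how often they were missing elsewhere is a description and was not tested.

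The study compared NuMA-depleted cells, 3 libraries labelled with NuMA depletion as genotype and as treatment, with wild-type cells, 3 libraries. All were HCT116, an established human colon cancer cell line, so the data come from 1 cancer line. The labels give neither the agent and duration of depletion nor the cultures behind the replicates, and p-values therefore reflect only the spread among these 6 libraries, and that spread may be technical. NuMA is a large protein of the interphase nucleus that also gathers microtubules at the spindle poles in mitosis, and the series is about its part in keeping local chromatin architecture.

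In ATAC-seq a transposase cuts and tags DNA where nucleosomes and other proteins leave it exposed, so that fragments pile up over active promoters, enhancers and insulator sites. A peak caller lists a place when its pileup exceeds the background expected around it. The fold is the pileup over that local background, each raised by the same small constant, so it is below their plain ratio. The q-value, given as −log10 q, is the p-value of that pileup after adjustment for the number of places tested. A region missing from a list did not pass the threshold in that library, and this does not show that it was closed. Both numbers belong to the list they come from, may be scaled differently in each list, and were not tested between lists.

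The single-library regions were spread very unevenly over the 6 libraries. NuMA-depleted replicates 1, 2 and 3 had 2473, 5630 and 379 of them, against 2176, 2775 and 1367 in wild-type replicates 1, 2 and 3. NuMA-depleted replicate 2 alone held 38.0% of all members and NuMA-depleted replicate 3 held 2.56%. The lowest and the highest number thus both came from the NuMA-depleted group, and the wild-type numbers lay between them. The mean was 2827 ± 2643 among NuMA-depleted and 2106 ± 707 among wild-type libraries (SD, n = 3 each), and the two-sided exact permutation test gave p = 0.8. A p below 0.1 is out of reach of this test with 3 libraries in each group. With the lists joined again without NuMA-depleted replicate 2, the difference turned to 449 fewer in NuMA-depleted libraries (-449, exact p = 0.9), and without NuMA-depleted replicate 3 it was 2047 more (exact p = 0.2).

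The lists themselves differed in length, and the members followed it. The lists held 38466, 45892 and 21783 peaks in NuMA-depleted replicates 1, 2 and 3, and 35502, 38685 and 32503 in wild-type replicates 1, 2 and 3. Members made up 6.43%, 12.3% and 1.74% of the peaks of the NuMA-depleted lists and 6.13%, 7.17% and 4.21% of those of the wild-type lists. In share as in number, the order of the libraries was the order of their list lengths. The share was 6.81% ± 5.27 among NuMA-depleted and 5.84% ± 1.51 among wild-type libraries (SD, n = 3 each, exact permutation p = 0.8, two-sided). It turned to 1.10 percentage points lower in NuMA-depleted libraries without NuMA-depleted replicate 2 (-1.10) and was nearly equal without wild-type replicate 3 (-0.0952).

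**Figure D1:**
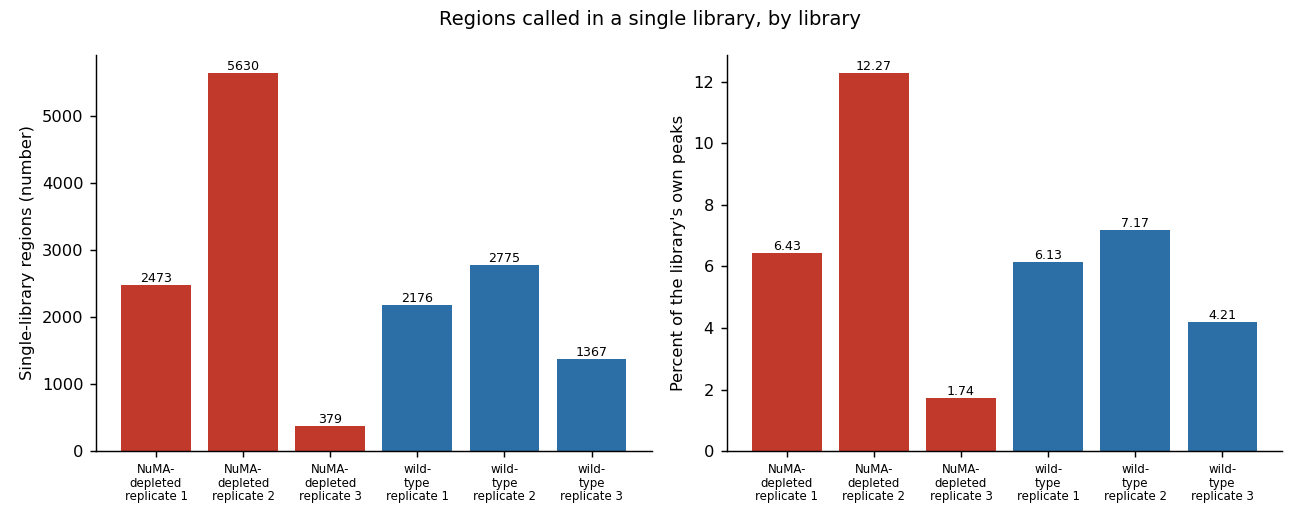
Number of single-library regions (left) and their percent of the library's own peaks (right), 1 bar per library, NuMA-depleted in red and wild-type in blue. NuMA-depleted replicate 2 had 5630 (12.3%) and NuMA-depleted replicate 3 had 379 (1.74%), with the 3 wild-type libraries between them.

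That order was overturned when every list gave the same number of peaks, its strongest 21783 by p-value. This number was the whole list of NuMA-depleted replicate 3, which kept its weakest peaks while every other list lost them. The setting thus compares 1 whole list with cut ones. NuMA-depleted replicates 1, 2 and 3 then had 1179, 880 and 2275 single-library regions, against 1258, 1150 and 1257 in wild-type replicates 1, 2 and 3. NuMA-depleted replicate 3, which had fewest with the full lists, had most, at 10.4% of its peaks, and NuMA-depleted replicate 2 had fewest, at 4.04%. There were 7999 such regions in all. Of those in NuMA-depleted replicate 3, 379 (16.7%) had no peak of any strength in another list, and of those in NuMA-depleted replicate 2, 230 (26.1%) had none. The remainder were called elsewhere below the strongest 21783.

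Relative depth, recovered from the folds and p-values scaled to a mean of 1, was 1.07, 1.21 and 1.11 in NuMA-depleted replicates 1, 2 and 3, and 0.975, 0.869 and 0.762 in wild-type replicates 1, 2 and 3. By this measure all 3 NuMA-depleted libraries were deeper than all 3 wild-type ones, so depth and group cannot be told apart in the group comparisons. The deepest library was the one with most members, but NuMA-depleted replicate 3 was the second deepest and had the fewest. The part of depth in the number of members was not tested.

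By strength the members were mostly weak calls of their lists. Their median fold was 4.92, 4.95 and 4.27 in NuMA-depleted replicates 1, 2 and 3, and 4.74, 5.15 and 4.94 in wild-type replicates 1, 2 and 3. The median −log10 q was 5.36, 6.29 and 3.64 among the NuMA-depleted libraries and 4.17, 5.16 and 4.45 among the wild-type ones. Read within each list, the median member stood at percentile 12.0, 14.5 and 5.79 of the NuMA-depleted lists and 9.34, 11.9 and 9.19 of the wild-type lists. Peaks in regions called by all 6 libraries stood at percentile 73.1, 79.2 and 58.1 of the NuMA-depleted lists and 71.2, 72.8 and 69.7 of the wild-type lists. Members thus stood far below shared regions in every list.

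In pileup, the median member reached 12, 15 and 9 at its summit in NuMA-depleted replicates 1, 2 and 3, and 10 in each of the wild-type libraries. The background beneath it had a median of 1.38, 1.97 and 1.20 among the NuMA-depleted and 1.02, 1.05 and 0.9898 among the wild-type ones. Peaks of regions called in all 6 libraries had median pileups of 33, 45 and 22 among NuMA-depleted and 27, 30 and 27 among wild-type libraries. Those of regions called in exactly 2 libraries had 15, 18 and 12 among NuMA-depleted and 12, 13 and 12 among wild-type libraries. A typical member thus had a summit pileup of 9 to 15. Whether the caller counted whole fragments or single read ends is not known, since its settings were not given.

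The share of peaks that no other library called was highest among the weakest peaks of every list. In the weakest 10% of each list, members made up 29.3%, 46.2% and 11.7% of peaks in NuMA-depleted replicates 1, 2 and 3, and 31.6%, 32.3% and 22.2% in wild-type replicates 1, 2 and 3. Even at the weak end, then, most peaks of each list were also called by another library. In the strongest 30% of each list, taken in steps of 10%, members made up at most 0.675% of any step. Above the middle of the list members were few, with 113, 300 and 7 among the NuMA-depleted and 73, 171 and 42 among the wild-type ones. A −log10 q of at least 10 was reached by 272, 974 and 2 members among NuMA-depleted and by 89, 330 and 57 among wild-type libraries.

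**Figure D2:**
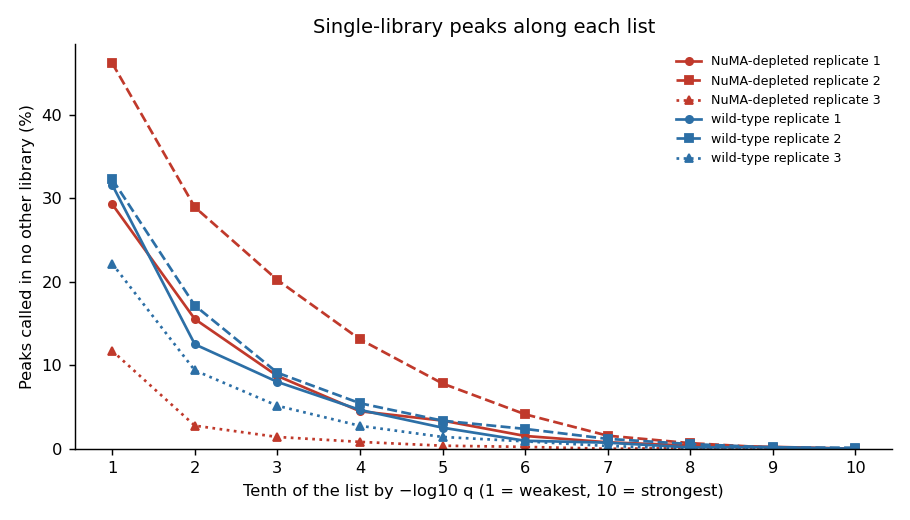
Percent of peaks called in no other library (vertical axis) in each 10% of a library's list, ordered from the weakest to the strongest −log10 q (horizontal axis), NuMA-depleted in red and wild-type in blue. The share was highest in the weakest 10%, 46.2% in NuMA-depleted replicate 2 and 11.7% in NuMA-depleted replicate 3, and near 0 in the strongest.

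Regions called in exactly 2 libraries, which lay just outside the selection, were a step stronger. There were 8185 of them. Their peaks had a median −log10 q of 7.24, 8.17 and 4.52 in NuMA-depleted replicates 1, 2 and 3, and of 5.61, 6.76 and 5.69 in wild-type replicates 1, 2 and 3. The weakest member of each list had a −log10 q between 2.003 and 2.025, the floor of the lists. By the edges of whole peaks the line between 1 and 2 libraries was sharp for most. Only 160 of the 14800 members lay under 50 bp from a peak of another library, and 169 of the 8185 regions of 2 libraries (2.06%) shared under 50 bp. The line moved with the measure of overlap: with 200 bp on summits in place of whole peaks, single-library regions numbered 21397.

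The widths of the members lay close to the narrowest that each list held. The median width was 276, 340 and 275 bp in NuMA-depleted replicates 1, 2 and 3, and 266, 256 and 283 bp in wild-type replicates 1, 2 and 3, where the narrowest peaks of those lists measured 213, 264 and 223 bp and 203, 190 and 222 bp. Medians were 297 ± 37.2 bp among NuMA-depleted and 268 ± 13.7 bp among wild-type libraries (SD, n = 3 each, exact permutation p = 0.3, two-sided), a difference of 28.7 bp that was 10.6 bp without NuMA-depleted replicate 2. Measured from the narrowest peak of each list, members were wider by a median of 63, 76 and 52 bp among NuMA-depleted and 63, 66 and 61 bp among wild-type libraries, and the difference between the groups shrank to 0.333 bp (exact permutation p = 1). Peaks of regions called in all 6 libraries had median widths of 662, 794 and 497 bp among NuMA-depleted and 631, 644 and 630 bp among wild-type libraries. Those of regions called in exactly 2 libraries were much closer to members. Their median widths were 304, 381 and 277 bp among NuMA-depleted and 286, 280.5 and 296 bp among wild-type libraries.

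The strongest members of wild-type replicate 2 stood apart from the other members of its list. On chromosome 11 at 85195011 to 85195213 (build hg19 throughout), wild-type replicate 2 had a peak 203 bp wide with a fold of 35.2 and a −log10 q of 391.96, the 2nd strongest of its 38685 peaks. On chromosome 8 at 70602342 to 70602602 it had one 261 bp wide with a fold of 28.5 and a −log10 q of 385, and on chromosome 5 at 71146741 to 71146940 one 200 bp wide with a fold of 23.02 and a −log10 q of 123. None of the other 5 libraries had a peak there. The nearest peak of any other library was 106834, 26118 and 36496 bp away.

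At their summits these 3 places had pileups of 338, 364 and 123 over backgrounds of 8.62, 11.8 and 4.39, where the median member of that library had 10 over 1.05. The next strongest member of wild-type replicate 2 had a −log10 q of 29.2. Peaks with a −log10 q over 100 numbered 7, 17 and 8 in NuMA-depleted replicates 1, 2 and 3, and 7, 9 and 6 in wild-type replicates 1, 2 and 3. Apart from the 3 in wild-type replicate 2, each of them lay in a region called in all 6 libraries, and none was narrower than 340 bp. The 3 were as narrow as weak members, yet ranked 2nd, 3rd and 8th of their list. Places prone to mapping artefacts were not screened here, and the origin of these 3 peaks was not tested.

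**Figure D3:**
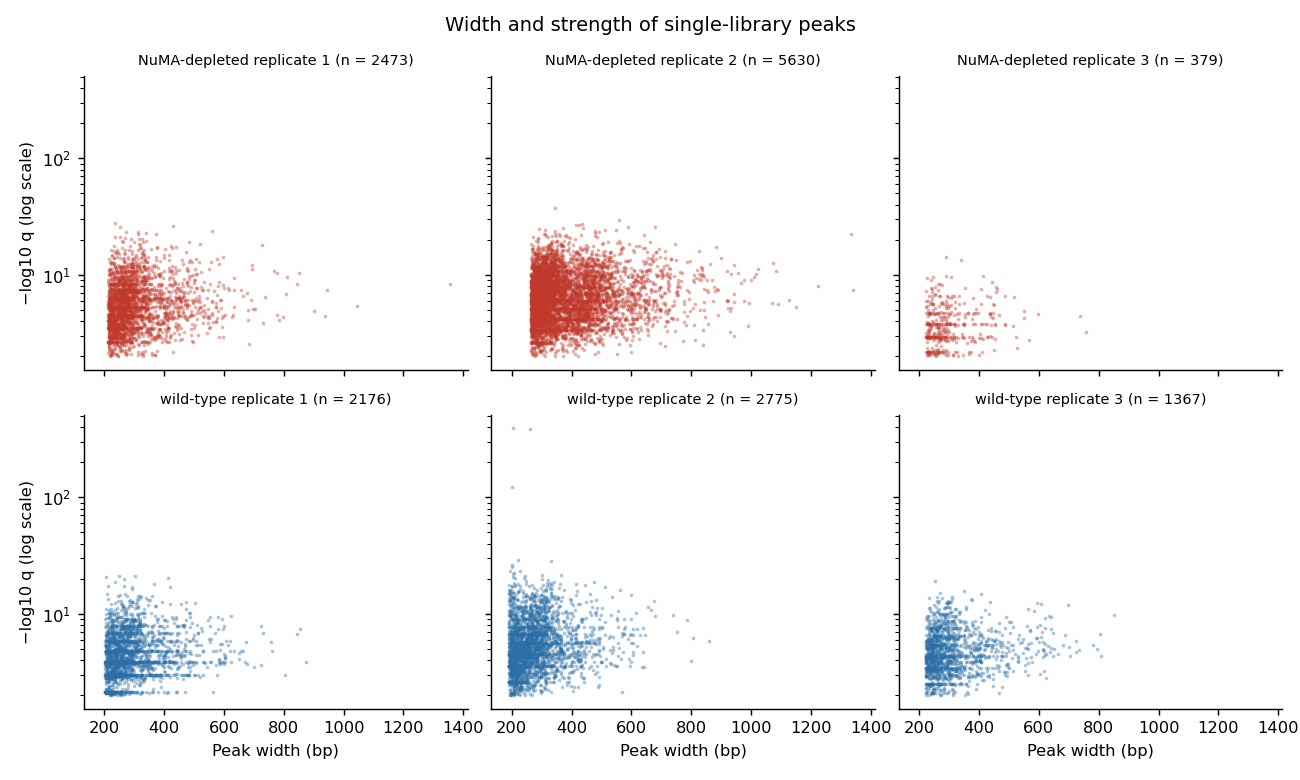
Width (horizontal axis, bp) and −log10 q (vertical axis, log scale) of every single-library peak, 1 panel per library, NuMA-depleted in the upper row and wild-type in the lower. The 3 points of wild-type replicate 2 at −log10 q of 391.96, 385 and 123 and widths of 200 to 261 bp stand apart from the other members of that library, whose highest value is 29.2.

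In the other libraries the strongest members stood lower within their own lists. In NuMA-depleted replicate 1 they lay on chromosome 19 at 47818656 to 47818890 (fold 11.05, −log10 q 27.7) and at 19106645 to 19107072 (fold 10.8, −log10 q 26.1), and on chromosome 5 at 61064560 to 61064811 (fold 11.5, −log10 q 25.6). In NuMA-depleted replicate 2 they lay on chromosome 17 at 36388806 to 36389148 (fold 11.5, −log10 q 37.6), on chromosome 11 at 65812527 to 65813083 (fold 10.7, −log10 q 29.9) and on chromosome 22 at 43742410 to 43742845 (fold 9.67, −log10 q 27.2). In NuMA-depleted replicate 3 they lay on chromosome 16 at 8885721 to 8886010 (fold 8.34, −log10 q 14.3), on chromosome 1 at 206672043 to 206672382 (fold 6.49, −log10 q 13.5) and on chromosome 6 at 4487787 to 4488077 (fold 6.87, −log10 q 9.83). The best of each list ranked 4094th, 3188th and 5156th among its peaks, so many shared peaks of the same list were stronger.

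Those of the remaining wild-type libraries were alike. In wild-type replicate 1 they lay on chromosome 14 at 78630519 to 78630819 (fold 10.4, −log10 q 21.0), on chromosome 7 at 76212701 to 76212950 (fold 12.4, −log10 q 21.0) and on chromosome 3 at 170028029 to 170028233 (fold 11.1, −log10 q 20.7). In wild-type replicate 3 they lay on chromosome 7 at 44076104 to 44076357 (fold 9.99, −log10 q 19.4) and at 99013163 to 99013432 (fold 8.88, −log10 q 15.1), and on chromosome 13 at 21278271 to 21278618 (fold 8.75, −log10 q 15.8). The best of each ranked 4689th and 5839th in its list. The region on chromosome 7 at 76212701 lay 286 bp from a peak of another library and joined it when gaps of up to 500 bp were closed. The other regions named here stayed single under that setting.

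The widest members were weak rather than strong. They measured 1356 bp on chromosome 2 at 173319630 (NuMA-depleted replicate 1), 1342 bp on chromosome 7 at 120724253 (NuMA-depleted replicate 2) and 759 bp on chromosome 4 at 52968916 (NuMA-depleted replicate 3). In the wild-type libraries they measured 875 bp on chromosome 18 at 24383759 (replicate 1), 860 bp on chromosome 3 at 188865381 (replicate 2) and 852 bp on chromosome 19 at 13166224 (replicate 3). Their −log10 q ran from 3.27 to 9.72, and all stood below the middle of their lists. The sequence and the gene annotation of hg19 were not used here, so no gene is assigned to any of these places.

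The median member lay somewhat farther from the regions that all 6 libraries shared than the median peak of 2 to 5 libraries did. Their median distance to the nearest such region, edge to edge, was 37159, 38302 and 48202 bp in NuMA-depleted replicates 1, 2 and 3, and 41651, 35563 and 40610 bp in wild-type replicates 1, 2 and 3. For peaks of regions called in 2 to 5 libraries it was 34233, 35190 and 35064 bp among the NuMA-depleted and 35185, 34182 and 34182 bp among the wild-type lists. The members' median was higher in 6 of 6 libraries, by a mean of 5575 ± 4229 bp (SD, n = 6), with p = 0.0312 (exact sign-flip permutation test, two-sided), the smallest this test can give. The excess ran from 1381 bp in wild-type replicate 2 to 13139 bp in NuMA-depleted replicate 3, and the mean of the other 5 libraries was 4063 bp (exact p = 0.0625, the smallest with 5 libraries). With the 5 lists joined again, and distances taken to regions called in all 5, it was 2805 bp (exact p = 0.0625). Regions of 2 to 5 libraries are shared between lists, so the 6 differences are not fully independent. Peaks of regions called in exactly 2 libraries, a part of that class, had medians of 36952, 38723 and 40554 bp among the NuMA-depleted lists. Among the wild-type lists these were 40580, 36376 and 35924 bp. Members lay nearer than these peaks in NuMA-depleted replicate 2 and wild-type replicate 2, and farther in the other libraries. The comparison with exactly 2 libraries was not tested.

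The same comparison was made within the weakest 20% of each list, as an addition after the data were seen. There the members' median was again higher in 6 of 6 libraries, by a mean of 5967 ± 4620 bp (SD, n = 6, exact sign-flip permutation p = 0.0312, two-sided). In the full lists, with each peak replaced by 200 bp around its summit, the excess was 1378 bp (exact sign-flip permutation p = 0.0625, two-sided). That p is above the smallest possible with 6 libraries, so the members' median was then not higher in every library. Between the groups the members' distance did not differ beyond the spread of libraries, with 41221 ± 6073 bp among NuMA-depleted and 39275 ± 3256 bp among wild-type libraries (SD, n = 3 each, exact permutation p = 0.8, two-sided). Without NuMA-depleted replicate 3 the difference turned to -575 bp.

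Members exceeded the peaks of 2 to 5 libraries at both ends of the range of distances, close to shared regions and far from them, in comparisons that were not tested. Under 1 kb from a region called in all 6 lay 2.10%, 1.69% and 2.37% of members in NuMA-depleted replicates 1, 2 and 3, and 2.90%, 3.24% and 2.71% in wild-type replicates 1, 2 and 3. For peaks of regions called in 2 to 5 libraries this share was 1.54%, 1.60% and 1.61% among NuMA-depleted and 1.79%, 1.85% and 1.94% among wild-type lists, lower than the members' in 6 of 6 libraries. Over 100 kb away lay 22.5%, 22.8% and 28.5% among NuMA-depleted and 26.7%, 20.7% and 24.7% among wild-type libraries. For peaks of regions called in 2 to 5 libraries the share over 100 kb away was 19.5%, 19.99% and 20.4% among NuMA-depleted and 20.3%, 19.5% and 19.5% in wild-type lists. Against peaks of regions called in exactly 2 libraries, neither excess held in every library. Under 1 kb lay 2.85% of these in NuMA-depleted replicate 3, above its members' 2.37%. Over 100 kb away lay 21.3% of these in wild-type replicate 2, above its members' 20.7%. At each end the members' share was higher in the other libraries. The remotest member lay 4103240 bp from a shared region and was called in wild-type replicate 1.

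**Figure D4:**
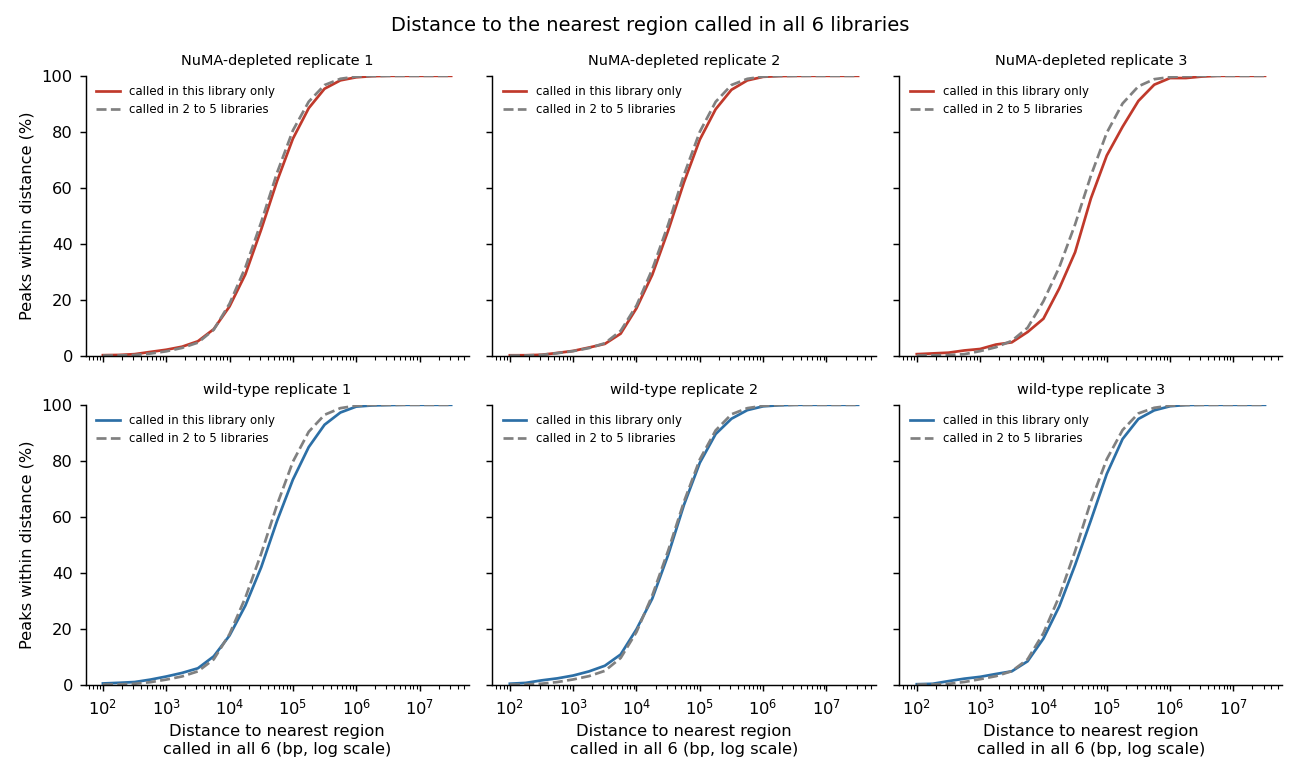
Percent of peaks (vertical axis) within a given distance of the nearest region called in all 6 libraries (horizontal axis, bp, log scale), for single-library peaks (solid, red or blue) and peaks called in 2 to 5 libraries (dashed, grey). The solid line runs to the right of the dashed one at the median in every panel, by 1381 bp in wild-type replicate 2 and by 13139 bp in NuMA-depleted replicate 3.

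The members lay on all 23 chromosomes. The mean share of members on a chromosome, divided by that of the other peaks, ran from 0.642 on chromosome 19 to 1.35 on chromosome 4. Chromosome 19, the most gene-dense human chromosome, held 3.07%, 3.25% and 0.792% of the members of NuMA-depleted replicates 1, 2 and 3, and 2.30%, 3.46% and 3.66% of those of wild-type replicates 1, 2 and 3. It held 4.32%, 4.13% and 4.33% of the other peaks of the NuMA-depleted lists and 4.09%, 4.39% and 4.47% of those of the wild-type lists. The share was lower among members in 6 of 6 libraries, by a mean of 1.53 percentage points (-1.53 ± 1.05, SD, n = 6), and by -0.606 at equal numbers of peaks per list. The share of NuMA-depleted replicate 3 rests on 3 members.

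Chromosome 4, a large gene-poor chromosome, stood on the other side. It held 5.10%, 5.56% and 6.86% of the members of NuMA-depleted replicates 1, 2 and 3, and 6.80%, 5.01% and 4.83% of those of wild-type replicates 1, 2 and 3. Among the other peaks it held 4.18%, 4.20% and 4.23% among the NuMA-depleted and 4.33%, 4.21% and 4.15% among the wild-type lists. Members exceeded the other peaks in 6 of 6 libraries, by 1.47 ± 0.865 percentage points (SD, n = 6), and by 0.955 at equal numbers of peaks. Of all merged regions on a chromosome, 29.9% were members on chromosome 4 and 20.4% on chromosome 19.

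No chromosome passed an adjusted threshold of 0.05 in this comparison. The count was 0 of 23 in each direction (0% called), while 7 chromosomes (30.4%) had all 6 libraries on the same side. These had p = 0.0312 (exact sign-flip permutation test, two-sided), the smallest it can give, and an adjusted p of 0.103 over 23 chromosomes. Even at that floor these 7 could not pass, so the count of 0 does not show that the shares were equal. The 7 were chromosomes 4, 5 and 12, with higher shares among members, and chromosomes 16, 17, 19 and 21, with lower shares. All 7 were picked by these values. Chromosome 5 differed by 0.838 and chromosome 17 by -1.20 percentage points. At equal numbers of peaks per list chromosome 5 turned to -0.0132 percentage points. In the weakest 20% of each list 3 chromosomes had all 6 libraries on the same side, chromosomes 4, 8 and 19, with an adjusted p of 0.240.

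**Figure D5:**
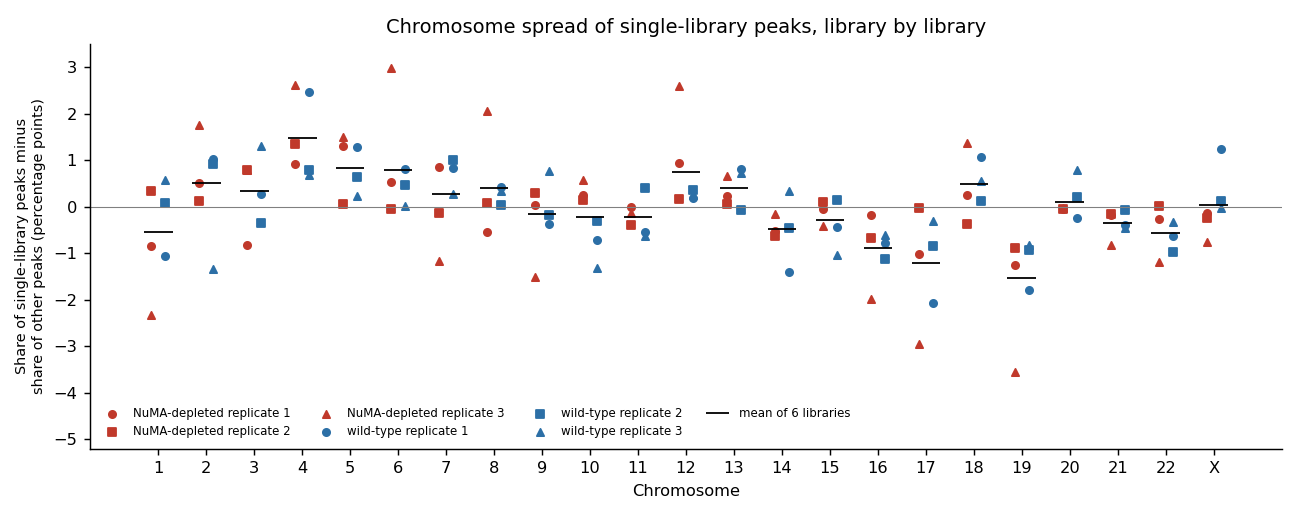
Share of single-library peaks minus share of the other peaks of the same list (vertical axis, percentage points) for each chromosome (horizontal axis), 1 symbol per library, NuMA-depleted in red left of wild-type in blue, with a black line at the mean of 6 libraries. All 6 symbols lie below 0 on chromosome 19 (mean -1.53) and above 0 on chromosome 4 (mean 1.47), where no chromosome passed the adjusted threshold.

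Between the groups, the share of members on a chromosome separated NuMA-depleted from wild-type libraries on 2 of 23 chromosomes (8.7%), named after their values were seen. Chromosome 10 held 5.34%, 5.22% and 5.80% of members in NuMA-depleted replicates 1, 2 and 3, and 4.37%, 4.83% and 3.66% in wild-type replicates 1, 2 and 3. The X chromosome held 1.78%, 1.71% and 1.32% among NuMA-depleted and 3.26%, 2.13% and 1.98% among wild-type libraries. On both chromosomes the exact permutation p was 0.1, two-sided, the smallest possible, and 0.941 after Benjamini-Hochberg adjustment over 23 chromosomes, so that no chromosome could have passed. The X difference, -0.853 percentage points, turned to 0.132 at equal numbers of peaks.

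On a finer scale members were found in nearly every stretch of the genome that held any region. Of 586 bins of 5 Mb that held any region, 583 held a member. Bins were ranked by their number of members, and whether members made up more of a bin than of all regions was not tested. The fullest bins, chromosome 19 from 45 to 50 Mb and chromosome 12 from 50 to 55 Mb, held 66 members each (0.446% of all). Merged regions there numbered 339 and 267, of which 126 and 87 were called in all 6 libraries. In NuMA-depleted replicate 1 the fullest bins, chromosome 12 from 50 to 55 Mb and chromosome 8 from 125 to 130 Mb, held 16 each. In NuMA-depleted replicate 2 the fullest was chromosome 22 from 35 to 40 Mb, with 34, and in NuMA-depleted replicate 3 no bin held more than 4. In the wild-type libraries it was chromosome 2 from 180 to 185 Mb with 12 in replicate 1, chromosome 12 from 50 to 55 Mb with 20 in replicate 2, and 2 bins of chromosome 17, from 15 to 20 Mb and from 35 to 40 Mb, with 11 each in replicate 3. No bin held more than 1.06% of a library's members.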

How the data were processed

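ATAC-seq peak lists of 6 libraries were used, 1 deposited list per library, with groups from the genotype label. The build was hg19 and the tools included Bowtie2 version 2.4.1, Picard and Trim Galore, per the submitters' processing notes. The peak names in the deposited files hold a macs2 folder. The version and settings of the caller, read filters and read shift were not given in the sources used here. Deposited values per peak were the fold (a linear ratio over local background), the −log10 p-value and −log10 q-value, and a score, 10 times the −log10 q, not used. The lists reach a q of up to 0.01. Read depth is unknown. Pileup and background were solved from fold and p under a Poisson model (tolerance 0.01 on the −log10 p scale), with 1 added to both in the fold. Relative depth was the smallest background over the smallest width of a list, assuming that this width is the fragment length used by the caller.

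Peaks were joined at 1 bp of overlap. Groups were compared with exact permutation tests (20 assignments), and members with other peaks by sign flips over 6 libraries (64), with Benjamini-Hochberg adjustment over chromosomes. The code was tested on simulated data. The members and lists of tests were chosen with earlier results of these data known. Regions named were the 3 strongest by −log10 q and the widest member of each library; chromosomes named were the 2 highest and 2 lowest mean differences. The alternatives tried were equal numbers of peaks, 500 bp gaps, 200 bp summit windows, autosomes, peaks with −log10 q of 5 or more, pairing by replicate number and dropping 1 library at a time. Gene starts and sequences were not analysed here, since no hg19 reference was used. Python 3.11.15, numpy 2.4.6, pandas 2.3.3 and scipy 1.17.1 were used.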

Additional observations from a re-analysis of the deposited data

How the results depend on the processing

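The total of 14800 single-library regions was 7999 at equal numbers of peaks, 21397 with 200 bp windows and 14818 to 15867 on dropping 1 library at a time. The group difference in their number, 721, ranged from -449 to 2047 on dropping single libraries, that in percent of the list, 0.976, from -1.10 to 3.72, and that in distance, 1946 bp, from -575 to 4172 bp. Their signs held under the other alternatives, but not their sizes: with a −log10 q of 5 or more they were 1232, 2.31 and 5851 bp, at equal numbers 223, 1.02 and 88.8 bp, and with a common smallest width the first 2 were 1887 and 3.35. The excess distance over regions of 2 to 5 libraries, 5575 bp, was 1378 bp (exact p = 0.0625) with 200 bp windows and 2805 to 5566 bp on dropping single libraries, where 5 libraries cannot give less than 0.0625; with the members and shared regions of all 6 lists kept it was 6105, 6068 and 4063 bp without NuMA-depleted replicates 1, 2 and 3, and 5397, 6414 and 5405 bp without wild-type replicates 1, 2 and 3 (exact p = 0.0625 each). Chromosomes that separated the groups, 2, numbered 1 with 200 bp windows, 1 on autosomes (which drop X), 4 whose pairs all had the same sign under the replicate block, and 4 to 5 on dropping single libraries, which loosens the requirement. Chromosomes with all libraries on the same side, 7, numbered 3 in the weakest 20% of each list and 6 to 10 on dropping single libraries. Chromosome 5 turned to -0.0132 and the X difference to 0.132 percentage points at equal numbers. With libraries of the same number paired, the replicate block left the difference in number at 721 (exact p = 0.75, 8 assignments, smallest p 0.25). Deviations of same-numbered libraries correlated at -0.0686, 0.0909 and 0.0198 over 2022 bins of 1 Mb, against -0.112 to 0.0839 for unlike numbers. With so few pairs this cannot show whether libraries of the same number shared a batch or a culture. The weakest 20%, the kept members, a common smallest width and equal numbers with 200 bp windows were added after the data were seen. Gene-start comparisons were not run.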

Other observations

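The gap from members to the calls of other libraries was also described, with no other class of peaks set beside it. The median gap to the nearest peak of any other library was 10489, 11575 and 10831 bp in NuMA-depleted replicates 1, 2 and 3, and 12529, 9172 and 9967 bp in wild-type replicates 1, 2 and 3. A gap under 500 bp was found for 5.10%, 3.36% and 10.03% of members in the NuMA-depleted and 6.76%, 7.24% and 8.71% in the wild-type libraries, and a gap over 100 kb for 587 of the 14800.

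Of the 8185 regions called in exactly 2 libraries, 2322 (28.4%) belonged to NuMA-depleted replicates 1 and 2 and 1419 (17.3%) to NuMA-depleted replicate 2 with wild-type replicate 2, whose shared member, NuMA-depleted replicate 2, had the longest list. NuMA-depleted replicate 3 shared 60 with NuMA-depleted replicate 1 and 217 with NuMA-depleted replicate 2.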
